A study of Mus musculus with 82 samples.

Results

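Smooth muscle contracts when cytosolic calcium rises, and the genes described here encode the proteins that let calcium in, release it from stores, pump it away and respond to it with a potassium current. The 10 members, of 55401 genes in the count tables, were chosen by name as calcium entry (Cacna1c, Orai1, Stim1), store release (Itpr1, Itpr2, Itpr3), pumps (Atp2a2, Atp2b4) and calcium-activated potassium channels (Kcnma1, Kcnn4), and all 10 had 1 row each. RNA was sequenced from primary aortic vascular smooth muscle cells (aVSMC) of C57BL/6 mice, used within a limited number of passages and kept 24 h without serum or supplements before each incubation. Incubations lasted 24 h or 48 h in medium without stimulus (control), 10 µg/L EGF (which activates EGFR), 10 nM AngII (which activates AT1R) or 1 µM U46619 (a synthetic thromboxane analog that activates TP), singly or combined. At 24 h, 6 libraries each, 1 per mouse, came from the control, the 3 single stimuli, EGF+AngII, EGF+U46619 and the triple combination EGF+AngII+U46619. At 48 h, control and EGF had 10 libraries each, and AngII, U46619, EGF+AngII and EGF+U46619 had 5 each, in the EGF/U46619 batch (sets B1) and the EGF/AngII batch (sets B2), and the labels trace these 10 culture sets to 5 mouse numbers. The growth medium used before the serum-free day contained EGF, for the control cells too.

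Receptors that couple to phospholipase C raise IP3, which opens the IP3 receptors of the endoplasmic reticulum (encoded by Itpr1, Itpr2 and Itpr3). The emptied store is sensed by STIM1, which opens the plasma membrane channel ORAI1, while the L-type channel Cav1.2 (Cacna1c) admits calcium upon depolarization. Calcium is returned to the store by SERCA2 (Atp2a2) and expelled by plasma membrane pumps such as PMCA4 (Atp2b4), and the potassium channels BK (Kcnma1) and KCa3.1 (Kcnn4) open with calcium and hyperpolarize the membrane. Loss of contractile L-type and BK channels and gain of KCa3.1 and store-operated entry are described for cultured or injured arterial smooth muscle.

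Total counts per library were 16483529 to 20818809 at 24 h and 19936925 to 33916114 at 48 h. After 48 h, the control library of set B2-4 stood apart: its deviations from the group mean correlated at −0.29 with those of its own set, against 0.517 or more for every other library at this time point. In that library Itpr3 was at 95.5 FPM, whereas the other libraries of the set had 22.3 (EGF), 25.8 (AngII) and 21.9 FPM (EGF+AngII). FPM are the TMM-scaled CPM of edgeR. Among markers of smooth muscle, 5 of 7 were measured (Tagln and Cnn1 lie on chromosome 9, whose genes are listed at 0 throughout and were not analysed here). Their summed level at 24 h was 1256 to 5377 FPM in control, 4425 to 15182 FPM with U46619 and 1719 to 13054 FPM with EGF+U46619. Of these 5, 2 were called higher with U46619 (Acta2, log2-fold change 2.05, and Lmod1, 0.84) and 1 with EGF+U46619 (Acta2, 1.62), and Acta2, with a control mean of 2602 FPM, made most of the sum. Myh11 (0.29 with U46619 and −0.28 with EGF+U46619), Smtn (0.22 and 0.25) and Des (−0.28 and −0.71) were not called in either. Of 5 fibroblast markers, 4 were called lower with U46619 and 5 with EGF+U46619 at 24 h, with summed levels of 376 to 3053 FPM in control, 159.01 to 1863 FPM and 163.7 to 969 FPM. Leukocyte markers summed to 17.7 to 116 FPM in control, 10.5 to 55.5 FPM with U46619 and 14.3 to 41.3 FPM with EGF+U46619. Lyz2 and Cd14, 2 of the 5, were called lower in both. Ptprc and Adgre1 were at 0 FPM in the 24 h controls and were not tested at 24 h. Cd68 went the other way, with log2-fold changes of 0.63 and 0.84 at a control mean of 1.27 FPM, and was not called. Endothelial markers reached from 5.44 to 1542 FPM among the 24 h controls, with 0 of 4 called for either incubation. The part of such cells in the values below was not tested, and in bulk RNA fewer cells of a type and less RNA per cell cannot be told apart.

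The sequence before the annotated start is shown for the 3 members that were regulated after 24 h. The windows are the 250 bases before the start of transcription in RefSeq (GRCm38.p6), 5′ to 3′ on the gene's strand, with GC boxes (GGGCGG on either strand, overlaps counted) in capitals. Stim1 lies on chr7:102267569-102267818 (plus strand), Itpr3 on chr17:27057054-27057303 (plus strand) and Atp2b4 on chr1:133753748-133753997 (minus strand), the last being a start inside the annotated gene. The sequence before the outer start of Atp2b4 is not among these windows and was not examined.
Stim1: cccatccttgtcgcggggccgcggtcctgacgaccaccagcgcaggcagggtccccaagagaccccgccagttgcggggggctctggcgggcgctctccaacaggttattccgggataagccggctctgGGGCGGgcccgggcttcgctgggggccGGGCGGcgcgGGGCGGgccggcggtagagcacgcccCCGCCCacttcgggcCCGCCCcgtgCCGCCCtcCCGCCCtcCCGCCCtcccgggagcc
Itpr3: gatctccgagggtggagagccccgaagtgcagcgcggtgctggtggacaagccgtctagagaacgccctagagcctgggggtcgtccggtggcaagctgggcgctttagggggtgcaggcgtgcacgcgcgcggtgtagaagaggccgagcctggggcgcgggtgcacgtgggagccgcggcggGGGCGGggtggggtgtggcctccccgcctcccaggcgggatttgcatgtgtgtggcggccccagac
Atp2b4: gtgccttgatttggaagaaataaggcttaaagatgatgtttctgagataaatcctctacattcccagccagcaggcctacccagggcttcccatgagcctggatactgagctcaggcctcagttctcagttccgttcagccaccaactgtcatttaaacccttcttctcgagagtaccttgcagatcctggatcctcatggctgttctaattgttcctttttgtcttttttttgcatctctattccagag

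The Stim1 window held 8 GC boxes and 78.4% G+C, that of Itpr3 1 GC box and 72.0% G+C, and that of Atp2b4 0 GC boxes and 45.6% G+C. Over 32851 windows of all genes the median was 52.4% G+C, and 32.7% of them held a GC box. None of the 3 windows held AP-1 (TGANTCA, in 6.75% of all windows), CRE (TGACGTCA, in 1.55%), NFAT (GGAAA, in 55.6%) or CArG box letters (in 1.47%), all searched on both strands, and only that of Atp2b4 held 1 TEAD match (GGAATG, in 12.6%). A match or its absence in these windows describes the letters and nothing more. RefSeq windows were found for 8 of 10 members and were not found for Itpr1 and Atp2a2.

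In control aVSMC the members spanned from abundant store genes to barely detected channels. Levels between genes were compared as FPM per kb of exon (FPKM), from the merged exons of each gene. After 24 h, Atp2a2 was the highest, at 63.7 ± 14.4 FPKM (SD, n = 6). Stim1 followed at 12.9 ± 4.66 FPKM and Orai1 at 12.2 ± 4.54 FPKM, the sensor and the channel of store-operated entry. Itpr3 (5.44 ± 2.85 FPKM), Itpr1 (4.17 ± 1.20 FPKM) and Itpr2 (2.00 ± 0.817 FPKM) came next. Atp2b4 was at 1.59 ± 0.648 FPKM and Cacna1c at 1.27 ± 0.557 FPKM. Kcnn4 at 0.238 ± 0.219 FPKM and Kcnma1 at 0.220 ± 0.245 FPKM were the lowest. Across the 9 neighbouring pairs, the exact two-sided sign-flip test over the 6 mice gave its smallest possible p of 0.031 for Atp2a2 over Stim1, Orai1 over Itpr3 and Cacna1c over Kcnn4, each in 6 of 6 mice, and adjusted over the 9 pairs this was 0.0938. No neighbouring pair therefore passed the adjusted threshold. With 6 mice, a pair at the smallest p passes only when most of the 9 pairs reach it. Not passing thus decides nothing about the pairs at that smallest p. Stim1 and Orai1 (higher in 4 of 6 mice, exact p = 0.812) and Kcnn4 and Kcnma1 (3 of 6 mice, exact p = 0.875) did not differ beyond their spread. In the 10 control libraries of the 48 h time point the order was the same except that Orai1 (12.6 ± 3.84 FPKM) stood above Stim1 (9.23 ± 2.42 FPKM) and Cacna1c (1.29 ± 1.16 FPKM) above Atp2b4 (1.16 ± 0.488 FPKM).

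**Figure D1:**
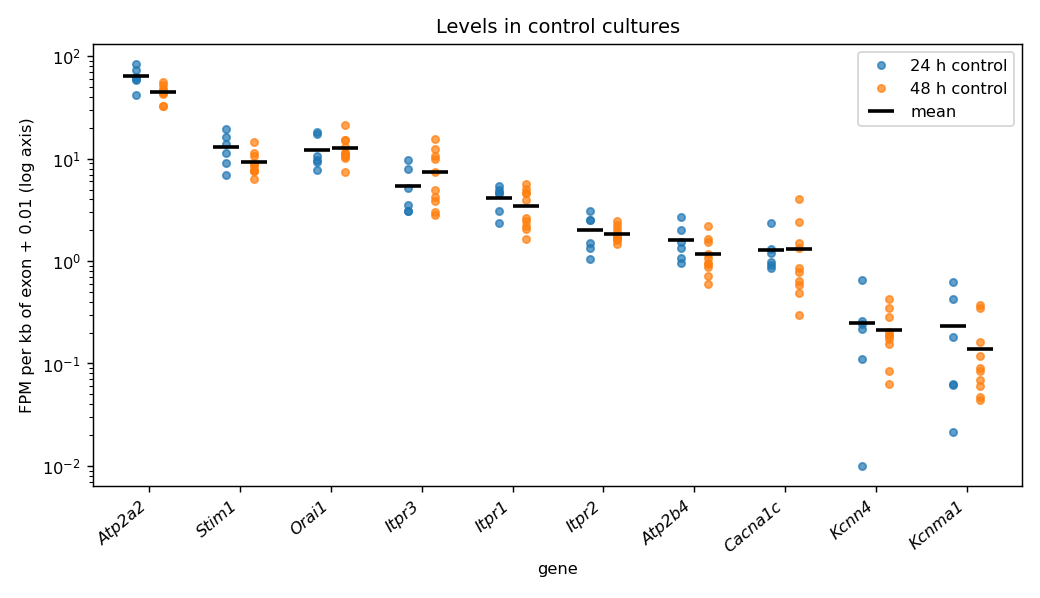
Level of each member in control cultures, as FPM per kb of exon plus 0.01 on a log axis, with each point a library (6 at 24 h, 10 at 48 h) and the bars the means. Atp2a2 stood highest at 63.7 FPKM at 24 h, and the potassium channel genes Kcnn4 and Kcnma1 lowest, under 0.25 FPKM on average.

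The mouse accounted for more of the spread than the incubation for every member except Stim1. Of the sum of squares of log2(FPM + 0.5) over the 42 libraries of 24 h, the mouse held 23.9% and the incubation 49.8% for Stim1. For Atp2b4 these shares were 53.9% and 30.8%, and for Itpr3 74.3% and 12.8%. Mouse shares of the other members ran from 49.0% (Atp2a2) to 78.5% (Orai1), and their incubation shares from 3.00% (Cacna1c) to 11.4% (Kcnma1). Between the highest and the lowest mouse, averaged over the 7 incubations, levels differed 7.25-fold for Kcnma1, 6.17-fold for Kcnn4 and 4.29-fold for Atp2b4. These shares are a description of the libraries.

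Calcium entry was marked by a lower Stim1 and by Orai1 and Cacna1c levels that were not called. A gene was called a differentially expressed gene (DEG) when DESeq2 and the quasi-likelihood test of edgeR both gave a Benjamini-Hochberg adjusted p (FDR) under 0.05 and either compared group averaged 5 FPM or more. The study's methods give this pair of tools, the FDR and the 5 FPM, whereas the quasi-likelihood test was chosen here. Among the 10 members, 8 reached this level in each comparison, and Kcnma1 and Kcnn4 did not. After 24 h with U46619, 2 members were DEG, both lower, Stim1 and Atp2b4. The share of all genes with enough signal called there was 37.4%, or 19.4% lower.

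Stim1 (ENSMUSG00000030987, chr7:102267806-102437319) ranged from 72.2 to 202 FPM in the 24 h controls, with a median of 132 FPM. With U46619 it ranged from 55.4 to 94.3 FPM (median 81.1 FPM), lower than the own control in 6 of 6 mice. The groups overlapped, because mouse 6, the lowest control, lay below several U46619 libraries. The log2-fold change was −0.76 (SE 0.18), with an edgeR FDR of 0.00192. With EGF+U46619, Stim1 ranged from 56.3 to 83.8 FPM (median 74.1 FPM), a log2-fold change of −0.85 (SE 0.19, FDR 0.000505), lower in 5 of 6 mice, with mouse 6 as the exception. With EGF+AngII+U46619 it ranged from 44.2 to 92.8 FPM (median 63.7 FPM), a log2-fold change of −1.01 (SE 0.19, FDR 6.67e-05), lower in 6 of 6 mice.

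EGF alone gave Stim1 68.5 to 104 FPM (median 82.7 FPM), lower than the own control in 6 of 6 mice. Its log2-fold change of −0.62 (SE 0.18) had an FDR of 0.101 in edgeR and 0.0526 in DESeq2, so it was not called. EGF was in fact followed by 0 called members, by both tools together and by each alone. Both tools together called 0.0386% of all genes, and DESeq2 alone 2.55%. With the likelihood ratio test of edgeR in place of the quasi-likelihood test, both tools together called 2.34% of all genes. The unadjusted p of both tools was under 0.05 for 4 members and for 2140 of 10352 genes. With EGF+AngII, Stim1 ranged from 56.7 to 95.7 FPM (median 80.8 FPM) and was the 1 DEG among the members, with a log2-fold change of −0.72 (SE 0.19, FDR 0.0408), lower in 5 of 6 mice, where 4.39% of all genes were called and 2.23% called lower. This call was lost without mouse 1 (−0.59), mouse 2 (−0.64), mouse 3 (−0.60) or mouse 5 (−0.78). In each of those fits 0% of all genes were called. AngII alone left Stim1 at 80.9 to 267 FPM (median 114 FPM), and 0 members were called with AngII by either tool, with 0 at an unadjusted p under 0.05 and 0% of all genes called.

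Orai1 (ENSMUSG00000049686, chr5:123015074-123030456) stayed between 11.4 and 53.9 FPM across the 42 libraries of 24 h. It was highest in mouse 6 and lowest in mouse 1 on average. Its log2-fold changes against control were −0.15 (95% interval −0.49 to 0.19) with U46619 and −0.29 (−0.63 to 0.05) with EGF+U46619, with edgeR FDRs of 0.50 and 0.173. Cacna1c (ENSMUSG00000051331, chr6:118587240-119196418) had a control range of 18.1 to 49.7 FPM and a median of 22.9 FPM. With U46619 it ranged from 14.8 to 66.6 FPM (median 28.3 FPM), a log2-fold change of 0.19 (95% interval −0.22 to 0.59, FDR 0.494), higher in 4 of 6 mice. Neither gene was called in any comparison of the 24 h libraries.

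**Figure D2:**
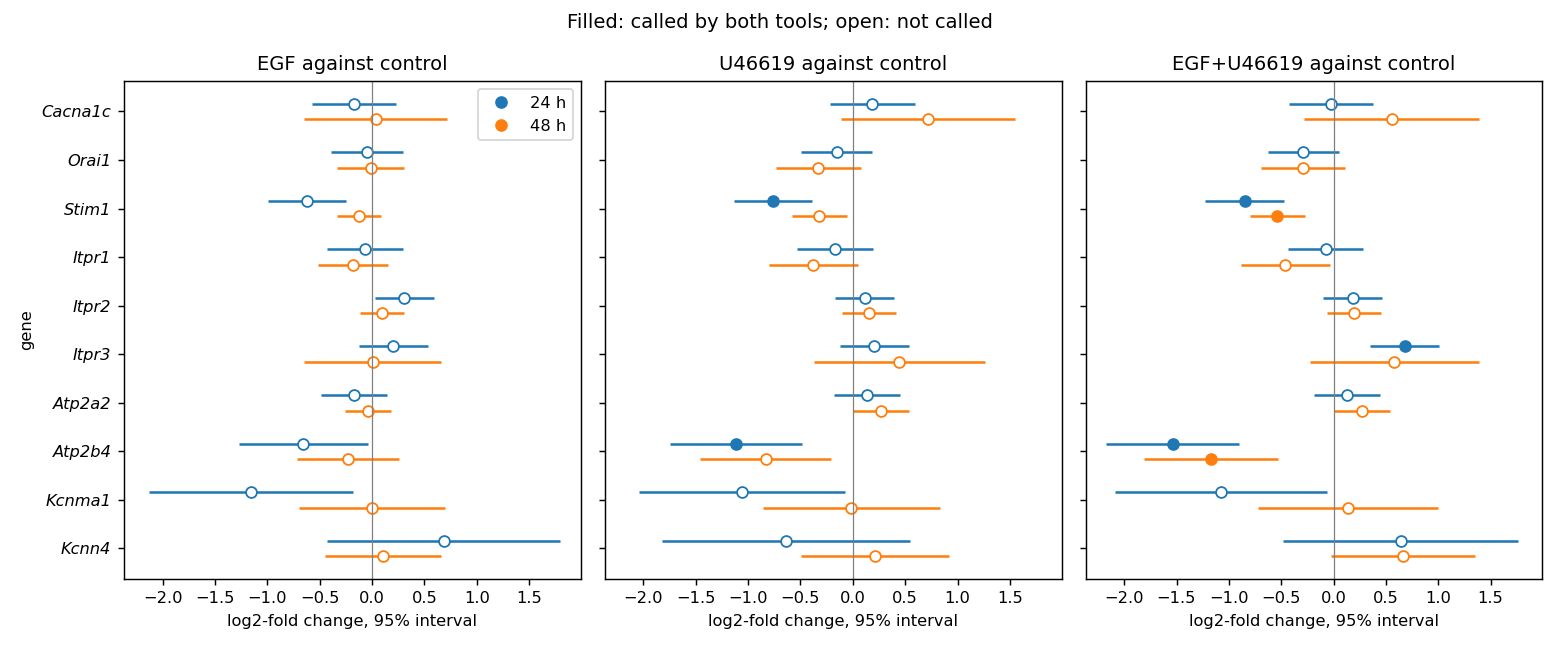
Log2-fold change against control for each member with EGF, U46619 and EGF+U46619, at 24 h and 48 h, with 95% intervals from edgeR. Filled points were called by both tools: Stim1 and Atp2b4 with U46619 at 24 h and with EGF+U46619 at both time points, and Itpr3 with EGF+U46619 at 24 h.

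Of the store release genes, Itpr3 was higher with the combined incubation while Itpr1 and Itpr2 were not called. With EGF+U46619 after 24 h, 3 members were DEG, Stim1 and Atp2b4 lower and Itpr3 higher, where 44.6% of all genes were called, 22.6% of them higher and 22.0% lower as shares of all genes tested. Itpr3 (ENSMUSG00000042644, chr17:27057304-27122223) ranged from 27.5 to 88.2 FPM in control, with a median of 39.1 FPM. It ranged from 40.9 to 132 FPM with EGF+U46619 (median 62.8 FPM), and each of 6 mice had a higher level than in its own control. The log2-fold change was 0.68 (SE 0.16, FDR 0.00125), and the groups overlapped because the mice differed. In mice 3 and 6, which had the highest controls (72.3 and 88.2 FPM), it reached 129 and 132 FPM.

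Each stimulus alone left Itpr3 uncalled. With EGF it ranged from 27.0 to 131 FPM (median 44.3 FPM) and was higher in 3 of 6 mice, a log2-fold change of 0.20 (SE 0.16, FDR 0.519). With U46619 it ranged from 30.8 to 82.5 FPM (median 50.8 FPM), also higher in 3 of 6 mice, at 0.20 (SE 0.16, FDR 0.347). The EGF-by-U46619 interaction, that is the deviation of the combined effect from the summed single effects on the log2 scale, was called for 0 members by either tool, with 1 at an unadjusted p under 0.05 in both and 0% of all genes. A departure of Itpr3 from additivity was therefore not shown.

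Set directly against EGF alone, EGF+U46619 had 2 DEG among the members, Itpr3 higher (log2-fold change 0.48, SE 0.16, FDR 0.0403, in 5 of 6 mice) and Atp2b4 lower (−0.88, SE 0.31, FDR 0.0473, in 6 of 6 mice). Of all genes 18.2% were called there, 9.50% higher and 8.68% lower. Both calls were lost without mouse 2, mouse 4, mouse 5 or mouse 6, where 7.03%, 10.5%, 10.2% and 20.0% of all genes were called. Against U46619 alone, EGF+U46619 had 0 called members by either tool, where both tools gave 2 of them an unadjusted p under 0.05 and 0% of all genes were called. Itpr3 was nevertheless higher with EGF+U46619 than with U46619 in 6 of 6 mice, with a log2-fold change of 0.48 (SE 0.16), which did not pass the adjustment (FDR 1.0 in edgeR, 0.194 in DESeq2). The comparison of EGF+AngII with EGF gave 0 called members by either tool, 0 at an unadjusted p under 0.05, and 0% of all genes.

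Itpr1 (ENSMUSG00000030102, chr6:108213096-108551109) ranged from 42.8 to 99.5 FPM in control and from 45.1 to 113 FPM with EGF+U46619, a log2-fold change of −0.08 (95% interval −0.44 to 0.28). Itpr2 (ENSMUSG00000030287, chr6:146108299-146502223) ranged from 15.3 to 45.7 FPM in control and from 21.9 to 46.1 FPM with EGF. It was higher with EGF in 6 of 6 mice, yet its log2-fold change of 0.31 (SE 0.14) had an FDR of 0.234. In the EGF+AngII+U46619 library of mouse 3, Itpr1 was at 12.4 FPM and Atp2a2 at 137 FPM, against 45.8 FPM or more and 365 FPM or more in the other 5 mice. That library had the lowest TMM factor of the 42 (0.646, the next lowest 0.836) and the lowest correlation with the other libraries of its mouse (0.657).

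As a share of the summed length-scaled level of the 3 IP3 receptor genes, Itpr3 held 45.1% ± 13.96 (SD, n = 6) in control and 55.9% ± 14.5 with EGF+U46619, a change of 10.8 ± 8.77 percentage points that was positive in 6 of 6 mice. Itpr1 held 37.2% ± 12.4 in control and 28.7% ± 13.1 with EGF+U46619, a change of −8.43 ± 7.15 points that was negative in 6 of 6 mice. Both gave the smallest p that the exact sign-flip test over 6 mice can give, 0.031, and 0.141 after adjustment over the 9 combinations of gene and incubation, so neither passed. At that smallest p a combination passes only when most of the 9 reach it, so not passing decides nothing here. The shares are parts of the same sum, so the fall of the Itpr1 share and the rise of the Itpr3 share are not separate results. Itpr2 changed by −2.41 ± 4.28 points (exact p = 0.219, adjusted p = 0.321). With U46619 alone the Itpr3 share changed by 4.37 ± 7.75 points (exact p = 0.156), and with EGF alone by 1.63 ± 7.31 points (exact p = 0.688).

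Among the pumps, Atp2b4 fell and Atp2a2 was not called at 24 h. Atp2b4 (ENSMUSG00000026463, chr1:133699457-133801041) ranged from 11.7 to 32.6 FPM in control, with a median of 17.4 FPM. With U46619 it ranged from 3.10 to 31.5 FPM (median 6.66 FPM) and was lower in 5 of 6 mice, the exception being mouse 1 with 24.8 FPM in control and 31.5 FPM with U46619. Its log2-fold change was −1.11 (SE 0.31, FDR 0.00573). With EGF+U46619 it ranged from 1.94 to 18.6 FPM (median 4.82 FPM), lower in 6 of 6 mice, a log2-fold change of −1.54 (SE 0.31, FDR 0.000244). Mice 1 and 6 kept 18.6 and 17.5 FPM with EGF+U46619, whereas mice 2 to 5 had 1.94 to 4.97 FPM.

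The triple incubation gave 3 DEG among the members as well, where 46.3% of all genes were called, 24.5% higher and 21.8% lower. Atp2b4 had the largest fitted change of the called members there, −1.73 (SE 0.32, FDR 6.28e-05), from 1.21 to 20.7 FPM (median 3.86 FPM). Stim1 was given above, and Itpr3 ranged from 42.9 to 88.3 FPM (median 63.0 FPM), a log2-fold change of 0.52 (SE 0.16, FDR 0.0109), higher in 5 of 6 mice. Itpr3 was no longer called without mouse 2 (0.49) or mouse 5 (0.34), where 36.3% and 40.3% of all genes were called. EGF alone left Atp2b4 at 5.81 to 30.3 FPM, lower in 6 of 6 mice, a log2-fold change of −0.66 (SE 0.30) with an FDR of 0.248.

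Atp2a2 (ENSMUSG00000029467, chr5:122453513-122502225) ranged from 253 to 511 FPM in control (median 375 FPM), from 317 to 516 FPM with U46619 (median 433 FPM) and from 317 to 504 FPM with EGF+U46619 (median 448 FPM). The log2-fold changes were 0.13 with U46619 (95% interval −0.18 to 0.45, FDR 0.533) and 0.13 with EGF+U46619 (−0.19 to 0.45, FDR 0.531). The intervals of Atp2a2 and Atp2b4 thus did not overlap in either of these incubations. Atp2b4 does not stand for all plasma membrane pump genes. Its relative Atp2b1, from the wider list below, was at 57.9 ± 19.9 FPM in the 24 h controls (SD, n = 6). Atp2b1 was not called with U46619 or EGF+U46619 at 24 h.

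**Figure D3:**
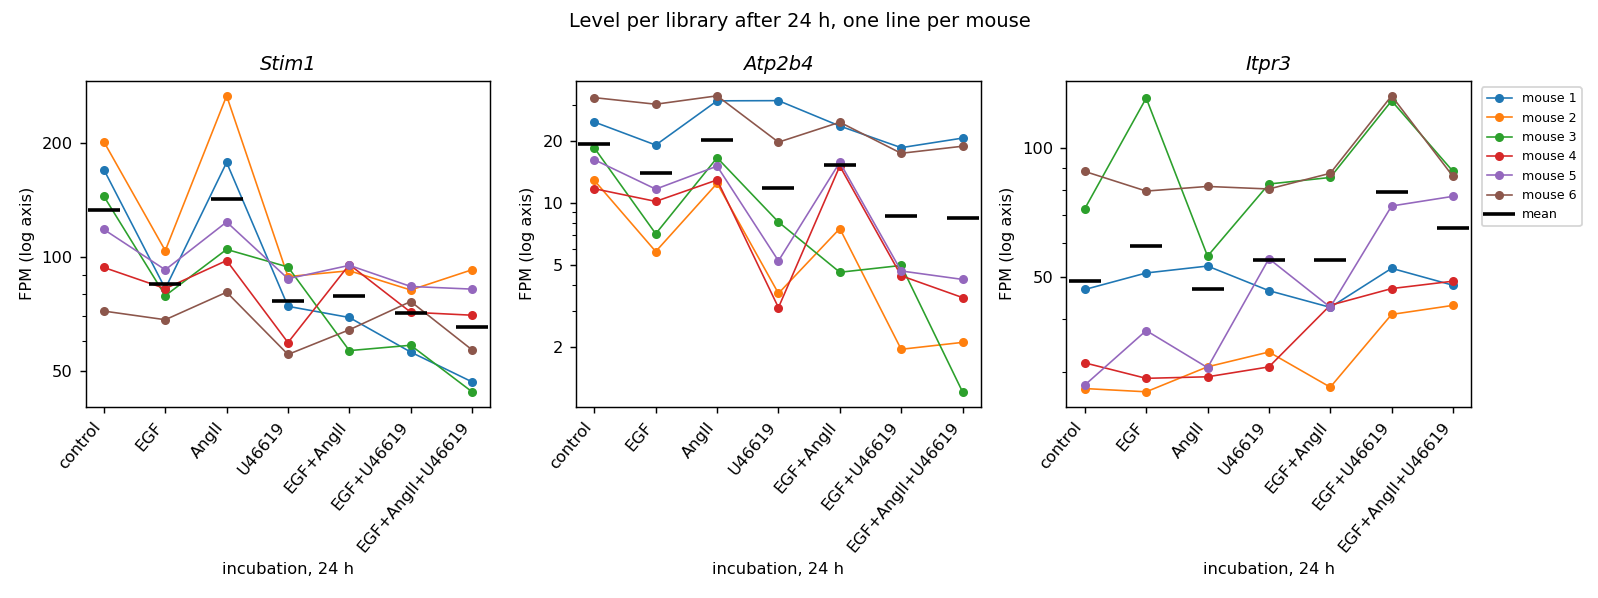
Level of Stim1, Atp2b4 and Itpr3 in each library after 24 h (FPM on a log axis), with 1 line per mouse over the 7 incubations and black bars for the means. Stim1 was lower with U46619 than in the own control in 6 of 6 mice, Atp2b4 in 5 of 6, and Itpr3 was higher with EGF+U46619 in 6 of 6.

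The calcium-activated potassium channel genes were low and varied between mice. Kcnma1 (ENSMUSG00000063142, chr14:23289431-24014491), the pore of the BK channel, was at 7.01 FPM in mouse 1, 2.93 FPM in mouse 2 and 10.6 FPM in mouse 3 among the controls, whereas mice 4 to 6 had 0.190 to 0.891 FPM. With EGF+AngII+U46619 these mice had 3.03, 0.851, 0.151 and 0.102 to 0.553 FPM in the same order. The log2-fold change of −1.93 (SE 0.53) had an FDR of 0.00356 in edgeR and 0.00136 in DESeq2, but the mean level stayed under 5 FPM, so Kcnma1 was not a DEG. Without mouse 3 it was −1.34. The remaining 24 h incubations gave Kcnma1 log2-fold changes of −1.16 (EGF), −0.26 (AngII), −1.06 (U46619), −1.30 (EGF+AngII) and −1.08 (EGF+U46619), with edgeR FDRs of 0.0832 or more.

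Kcnn4 (ENSMUSG00000054342, chr7:24370263-24386690), the KCa3.1 channel, was at 0 to 3.28 FPM in the 24 h controls. A count of 0, as in the control of mouse 1, allows up to 0.180 FPM (3 counts, counting error only). In mouse 3 it was at 1.05 FPM in control, 0.799 FPM with AngII and 0.773 FPM with U46619, but at 8.13 FPM with EGF, 8.72 FPM with EGF+AngII, 8.74 FPM with EGF+U46619 and 14.8 FPM with EGF+AngII+U46619. The last 2 values came from 190 and 196 counts, over effective library sizes after TMM scaling of 21729624 and 13261629 counts. The other 5 mice had at most 4.06 FPM in the incubations with EGF. The fitted log2-fold changes of the incubations with EGF were 0.51 to 0.68, with FDRs of 0.334 or more.

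**Figure D4:**
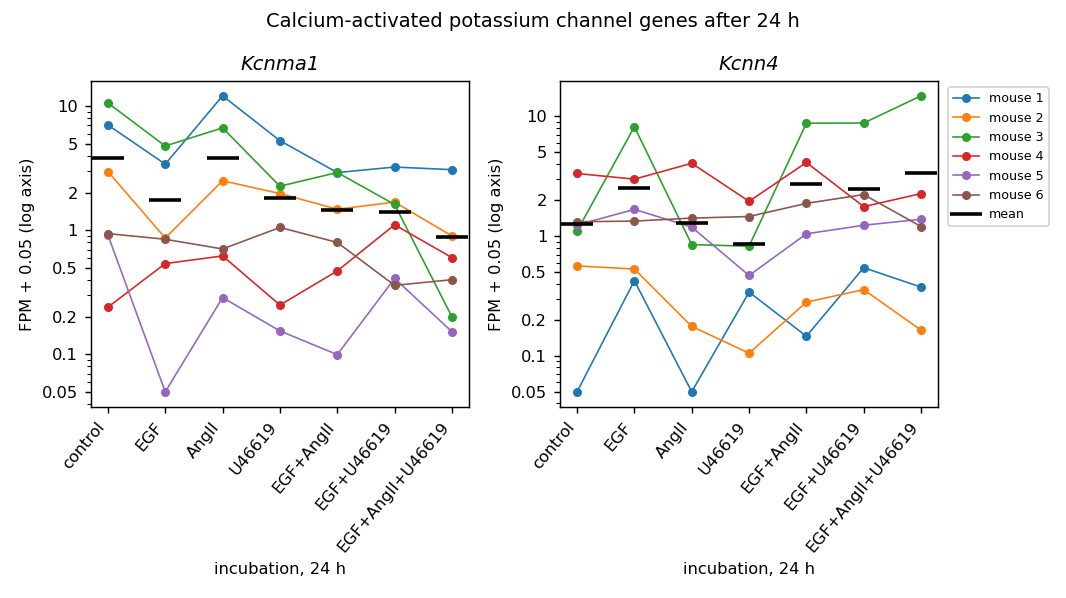
Level of Kcnma1 and Kcnn4 in each library after 24 h (FPM plus 0.05 on a log axis), with 1 line per mouse and black bars for the means. Kcnma1 was above 2 FPM in the controls of mice 1 to 3 and under 1 FPM in mice 4 to 6, and Kcnn4 in mouse 3 stood at 8.13 to 14.8 FPM in the 4 incubations with EGF.

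After 48 h, Stim1 and Atp2b4 were again lower with EGF+U46619, the 2 DEG among the members, where 9.49% of all genes were called and 4.17% called lower. Stim1 was at 58.8, 45.2, 86.2, 60.6 and 85.6 FPM in sets B1-1 to B1-5, whose own controls had 66.0, 77.9, 111, 77.8 and 152.2 FPM. Every set was lower, with a log2-fold change of −0.54 (SE 0.13, FDR 0.00899). Atp2b4 was at 17.6, 3.55, 5.64, 4.22 and 2.75 FPM, with own controls of 26.9, 11.6, 8.70, 14.4 and 10.6 FPM. This was a log2-fold change of −1.17 (SE 0.31, FDR 0.0183), lower in 5 of 5 sets. The call was lost without set B1-2 (−1.08), B1-4 (−1.02) or B1-5 (−0.97), where 5.85%, 5.59% and 6.97% of all genes were called. Set B1-1 held the highest level of Atp2b4 in all 4 incubations of this batch.

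U46619 alone gave 0 called members by both tools at 48 h, and also by each alone, with 3 at an unadjusted p under 0.05 in both. Both tools together called 5.59% of all genes, and DESeq2 alone 8.88%. Stim1 was at 57.8, 54.7, 86.8, 70.9 and 127 FPM and Atp2b4 at 19.3, 5.48, 5.39, 5.77 and 5.76 FPM, both lower than the own control in 5 of 5 sets. The log2-fold changes were −0.32 (SE 0.13, FDR 0.138) and −0.83 (SE 0.31, FDR 0.107). Stim1 was called without the control library B2-4 (−0.39), and Atp2b4 without set B1-1 (−1.26). Against EGF alone, EGF+U46619 had 0 called members by both tools together, with 3 at an unadjusted p under 0.05 in both and 6.68% of all genes called. DESeq2 alone called 2 members (Stim1 and Atp2b4) and 10.5% of all genes. With the culture set as the block in place of the mouse, 3 were called (18.2% of all genes). Within batch B1 alone with that block these were the same 3, Stim1 (−0.38), Atp2b4 (−1.15) and Itpr3 (0.53), where 19.5% of all genes were called.

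The fit of both batches together compared the B1 incubations also with the B2 controls, in which Itpr3 was at 111, 88.7, 95.5, 27.0 and 140 FPM, compared with 38.2, 44.9, 25.6, 34.7 and 66.3 FPM in the B1 controls. With U46619, Itpr3 was at 66.6, 64.2, 65.1, 71.2 and 96.1 FPM, and with EGF+U46619 at 87.5, 59.7, 67.3, 69.4 and 121 FPM, higher than the own control in 5 of 5 sets in both cases. The pooled log2-fold changes of 0.44 (SE 0.40, FDR 0.528) and 0.58 (SE 0.40, FDR 0.369) were not called. Within batch B1 alone, with the culture set as the block, Itpr3 rose by 0.85 with U46619 (SE 0.13, FDR 0.000167) and 0.97 with EGF+U46619 (SE 0.13, FDR 2.86e-05).

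In this same fit of batch B1 with the culture set as the block, 5 members were called with U46619, where 30.1% of all genes were called, and 4 with EGF+U46619, where 36.4% were. Stim1 (−0.29 with U46619 and −0.50 with EGF+U46619) and Atp2b4 (−0.90 and −1.29) were lower in both. Atp2a2 was higher in both (0.22 and 0.23, FDR 0.0482 and 0.0367), at 316, 303, 337, 352 and 341 FPM with U46619 against own controls of 269, 277, 258, 273 and 343 FPM. Cacna1c was higher with U46619 (0.41, SE 0.12, FDR 0.022), at 29.2, 15.7, 28.0, 23.9 and 76.7 FPM against 31.5, 12.1, 16.2, 18.1 and 51.2 FPM, in 4 of 5 sets. Sets B1-1 and B1-4 carry the same mouse number in the labels, so by the labels the 5 sets are not 5 mice. The study's methods instead take every replicate from a separate mouse, and this conflict was not settled.

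**Figure D5:**
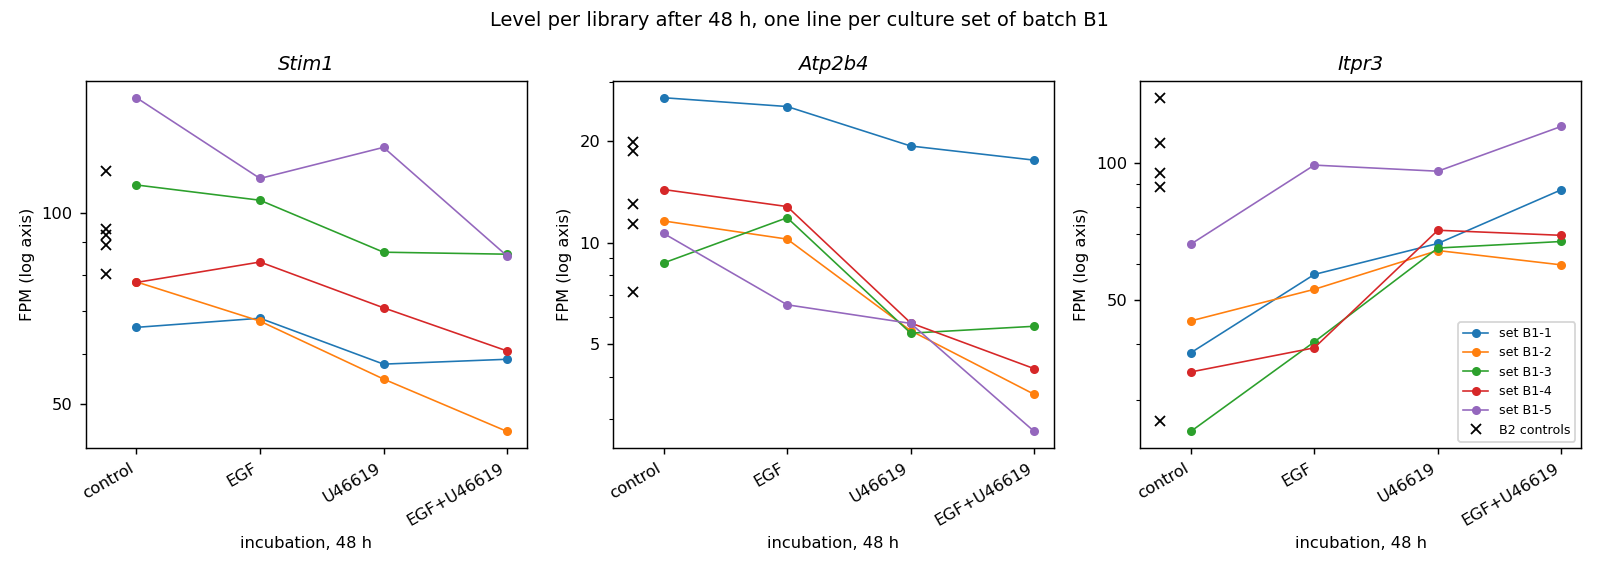
Level of Stim1, Atp2b4 and Itpr3 in each library of the EGF/U46619 batch after 48 h (FPM on a log axis), with 1 line per culture set, and the 5 controls of the EGF/AngII batch as crosses. Stim1 and Atp2b4 lay below and Itpr3 above the own control with both U46619 and EGF+U46619 in 5 of 5 sets.

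EGF, AngII and EGF+AngII each gave 0 called members at 48 h by either tool, with 0 at an unadjusted p under 0.05 in both and 0% of all genes called. The largest of these 30 fitted changes was that of Cacna1c with AngII, −0.51 (95% interval −1.38 to 0.36). Within the culture sets, Cacna1c differed from the own control by −0.14 ± 0.40 on the log2 scale (SD, n = 5) and was higher with AngII in 3 of 5 sets. EGF+U46619 against U46619 and the interaction of EGF and U46619 also gave 0 called members by either tool, 0 at an unadjusted p under 0.05, and 0% of all genes. Kcnma1 ranged from 0.267 to 6.24 FPM and Kcnn4 from 0.268 to 2.31 FPM over the 40 libraries of 48 h. Kcnn4 was higher with EGF+U46619 than in the own control in 5 of 5 sets, with a log2-fold change of 0.67 (SE 0.34, FDR 0.219) at a mean of 1.24 ± 0.495 FPM (SD, n = 5).

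A wider list of 92 genes of calcium handling and potassium channels, of which 7 are listed at 0 in every library, placed the members among their partners. After 24 h, 49 of the 92 had enough signal to be called. With U46619, 18 of the 49 (36.7%) were DEG, 5 higher and 13 lower, and with EGF+U46619 22 (44.9%), 5 higher and 17 lower. The shares called in either direction lay close to those over all genes (37.4% and 44.6%). The directions were less alike, as lower calls outnumbered higher ones in the list. Over all genes, 22.6% were called higher and 22.0% lower with EGF+U46619. With U46619, 19.4% of all genes were called lower, out of the 37.4% called. This difference in direction was not tested. The list's median log2-fold changes were −0.15 and −0.13, against −0.004 and 0.017 over all genes.

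Channel and exchanger genes were among the lower ones. The auxiliary potassium channel subunit Kcnab1 had a log2-fold change of −1.05 (SE 0.28) with U46619, lower in 6 of 6 mice. Slc24a3, a potassium-dependent sodium/calcium exchanger, had −1.24 (SE 0.32) with U46619 and −2.06 (SE 0.33) with EGF+U46619, and the mitochondrial sodium/calcium exchanger gene Slc8b1 had −1.02 (SE 0.21) and −1.20 (SE 0.21). Cacna1g, a T-type calcium channel, was lower at −0.68 (SE 0.26) and −1.22 (SE 0.26), and the channel subunit Cacnb1 at −0.96 (SE 0.23) and −1.10 (SE 0.23). The store-operated channel gene Orai3 went from 42.8 ± 8.49 FPM to 25.7 ± 5.84 FPM with U46619, a log2-fold change of −0.74 (SE 0.19, FDR 0.00277), lower in 6 of 6 mice, next to its relative Orai1, which was not called. Kcnn1, a small-conductance calcium-activated potassium channel, was lower at −0.91 (SE 0.24) and −1.12 (SE 0.24). The purinergic channel gene P2rx4 was lower with both incubations (−0.47, SE 0.14, and −0.64, SE 0.14), and Plcg1, a phospholipase C that makes IP3, likewise (−0.62, SE 0.15, and −0.60, SE 0.15). Trpm4 (−0.40, SE 0.15), Saraf (−0.30, SE 0.10), Mrvi1 (−0.72, SE 0.22) and Mylk, the myosin light chain kinase (−1.10, SE 0.42), were called lower with EGF+U46619 and not with U46619, but the comparison of EGF+U46619 with U46619 called no gene, so a difference between these incubations was not shown.

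Among the higher genes of the list were calcium-binding proteins and a mitochondrial subunit. Calm2, 1 of the calmodulin genes, went from 377 ± 119 FPM to 679 ± 139 FPM with U46619, a log2-fold change of 0.87 (SE 0.14, FDR 5.00e-05), higher in 6 of 6 mice. Calu, a calcium-binding protein of the secretory pathway, had 0.81 (SE 0.15) and 0.74 (SE 0.15), and Canx, a lectin chaperone of the endoplasmic reticulum, 0.34 (SE 0.13) and 0.39 (SE 0.13). Mcub, the inhibitory subunit of the mitochondrial calcium uniporter, went from 19.6 ± 5.26 FPM to 38.1 ± 11.2 FPM with U46619, a log2-fold change of 0.95 (SE 0.17, FDR 9.94e-05), higher in 6 of 6 mice. At 48 h, 0 of 51 genes of the list were called with U46619 by edgeR and DESeq2 together, 0 by edgeR alone and 2 by DESeq2 alone, with 9 at an unadjusted p under 0.05 in both. Of all genes, both tools together called 5.59% there, and DESeq2 alone 8.88%. With EGF+U46619, 3 of 51 (5.88%) were called, all lower, beside 9.49% of all genes called and 4.17% called lower. These were Slc24a3 (−1.94, SE 0.38, FDR 0.00159), Mylk (−1.44, SE 0.46, FDR 0.0497) and the sodium/calcium exchanger gene Slc8a1, the last named after its values were seen.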

How the data were processed

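RNA-seq of poly(A) RNA was analysed in 82 libraries of mouse aVSMC. The authors mapped the reads to mm10 with HISAT2 (2.1.0) and deposited raw counts per gene from featureCounts, with multi-mapping reads counted and Ensembl v101 names, in 1 table for 24 h and 2 for 48 h (1 per batch). A read shared by near-identical copies can therefore count for each.

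From these counts, each time point was fitted separately with TMM scaling and the design mouse + treatment, in edgeR's quasi-likelihood test (4.0.16) and DESeq2 (1.42.0) under R 4.3.3. DEG had a Benjamini-Hochberg FDR under 0.05 in both tools, averaged 5 FPM or more in either compared group, and had passed the low-count filter at both time points. FDR values without a tool are edgeR's. The fits were tested on simulated data. The mouse was taken as the pairing because the labels give it. At 24 h, 42 of 42 libraries correlated above 0.1 with the other libraries of their mouse (lowest 0.657). At 48 h, 39 of 40 did so with those of their culture set. The main 48 h fit, however, used the mouse number, which joins several sets, also across the batches. It had no term for the set or the batch, so the pairing within a set was not used there. P-values for 48 h measure the spread between cultures, as several share a mouse number in the labels. Shares and level orders were tested with the exact two-sided sign-flip test over mice.

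The members and lists were chosen with earlier results of these data known. All 10 members are named, and of the wider list, per role, at most the 2 genes with the largest absolute change among those called with U46619 or EGF+U46619 at 24 h. Some genes that this rule selects are not reported here. Alternatives were each tool alone, a likelihood ratio test, other size factors, no filters, no block or another block, each replicate left out and, added after seeing the data, the fit without the control library B2-4. Gene positions are those of GRCm38. Floors for counts of 0 cover counting error only, and intervals of fold changes include the spread between libraries.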

Additional observations from a re-analysis of the deposited data

Results flagged for a closer look

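Of 130 groups of 5, 6 or 10 libraries (10 members in 13 groups), 15 held a library whose gap to the nearest other was large for the range of its group by Dixon's criterion, and chance alone flags about 1 in 20 groups. Each is given as its FPM.

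At 24 h, Cacna1c was at 49.7 FPM in the control of mouse 3, with 18.1 to 27.9 FPM in the others. Atp2a2 was at 137 FPM with EGF+AngII+U46619 in mouse 3, with 365 to 494 FPM in the others. Kcnma1 was at 3.03 FPM with EGF+AngII+U46619 in mouse 1. Kcnn4 in mouse 3 was at 8.13 FPM with EGF, 8.74 FPM with EGF+U46619 and 14.8 FPM with EGF+AngII+U46619, and in mouse 4 at 4.00 FPM with AngII.

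At 48 h, set B1-1 stood apart for Atp2b4, at 19.3 FPM with U46619 and 17.6 FPM with EGF+U46619, and for Itpr2, at 40.9 FPM with EGF+U46619. Set B1-5 was at 76.7 FPM for Cacna1c and 96.1 FPM for Itpr3 with U46619. Kcnma1 was at 6.24 FPM in set B1-2 with EGF. In the EGF/AngII batch, Stim1 was at 159.1 FPM in set B2-4 and Atp2b4 at 4.23 FPM in set B2-6, both with EGF+AngII.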

How the results depend on the processing

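Over the comparisons with control, among the 19 pairs of member and comparison called in at least 1 fit, alternatives kept direction and call 286 times, lost the call 17 times, gained it 16 times and reversed the direction 0 times, and of the 91 pairs never called 46 changed sign under an alternative. Without the replicate block, the members called at 24 h were 1 with U46619 (9.96% of all genes), 0 with EGF+AngII (0%) and 1 with EGF+U46619 (17.5%). There was 1 with EGF+AngII+U46619 (20.5%), 0 for EGF+U46619 against EGF (1.02%), and at 48 h 0 with EGF+U46619 (1.80%). Leaving out 1 mouse gave 0 to 1 with EGF+AngII (0% to 10.8% of all genes) and 0 to 3 for EGF+U46619 against EGF (7.03% to 25.6%). The latter comparison had 1 without the low-count filter (14.2%). Leaving out 1 set at 48 h gave 0 to 1 with U46619, 1 to 2 with EGF+U46619 and 0 to 1 for EGF+U46619 against EGF. Where that set was of batch B1, 1.38% to 5.16%, 3.45% to 8.48% and 2.22% to 6.23% of all genes were called, in this order. At 48 h with the culture set as the block, 1 member was called with U46619 (14.8% of all genes) and 3 for EGF+U46619 against EGF (18.2%), and within the EGF/U46619 batch alone with that block 5 with U46619 (30.1%), 4 with EGF+U46619 (36.4%) and 3 against EGF (19.5%). Without the control library B2-4, 1 was called with U46619 (5.28%) and 1 against EGF (7.37%), and with the culture set block as well 3 (22.1%) and 4 (23.3%). DESeq2 alone and the likelihood ratio test with DESeq2 each called 2 for EGF+U46619 against EGF at 48 h (10.5% and 7.78% of all genes). The cause of these differences was not tested. With 1 mouse left out the exact test cannot go below 0.0625, so it says nothing about the order of levels or the shares. Genes under 5 FPM limit what can be said of Kcnma1 and Kcnn4.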
